A study of Mus musculus with 2 samples.

Results

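The lysosomal cathepsins and legumain are the proteases that digest protein in the endosomes and lysosomes of phagocytes. The 10 genes described here are Ctsb, Ctsl, Ctss, Ctsk, Ctsc, Ctsh, Ctsz, Ctsd, Ctsa and Lgmn. They were chosen by symbol, and all 10 were found among the 27998 genes listed for each library. Single-cell RNA was measured in tumor mononuclear phagocytes (TMPs), which were sorted from B16 melanoma tumors as MerTk+ CD64+ cells and gave 2 libraries. B16 is a mouse melanoma line transplanted into C57Bl/6 mice. The first library came from Fcmr+/+ mice and the second from Fcmr-/- mice, which carry the deletion in all cells and not in myeloid cells alone. The labels name no other treatment and no age, and how many mice gave each library was not given in the sources used here.

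Each library is 1 sample, so no test between the genotypes was possible and the spread between mice is not known. After the limits on cells, 6352 Fcmr+/+ cells with 128408544 UMIs (unique molecular identifiers, each marking 1 captured RNA molecule) and 7999 Fcmr-/- cells with 124630621 UMIs were kept. The median cell had 17974 UMIs in the Fcmr+/+ library and 12911 in the Fcmr-/- library, and 73 cell barcodes occurred in both. Fcmr itself had 7 and 6 UMIs, too few to check either label. The genes of the sort were present, with Mertk at 62.8 and 48.7 counts per 1000000 UMIs (CPM) and Fcgr1, which encodes CD64, at 250.4 and 394 CPM in Fcmr+/+ and Fcmr-/- cells. All 6 melanoma markers were detected in both libraries and summed to 40.6 and 64.1 CPM. The T and NK cell markers, of which 1 was at 0 in Fcmr+/+ cells, summed to 0.864 and 14.5 CPM. Intervals are exact 95% intervals that cover counting error only. Log2 ratios compare Fcmr-/- with Fcmr+/+ cells after adding 1 CPM to both levels, and genes were counted as 1.5-fold higher or lower on that ratio.

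The members belong to several protease families. Ctsb, Ctsl, Ctss and Ctsk encode cysteine endopeptidases, which cut inside a protein chain. Ctsc, Ctsh and Ctsz encode cysteine proteases that mainly remove residues from chain ends. Ctsd encodes an aspartic protease, Ctsa a serine carboxypeptidase and Lgmn an endopeptidase that cuts after asparagine. Most are made as inactive precursors and become active in the acidic lysosome. In antigen-presenting cells cathepsin S trims the invariant chain that blocks the groove of MHC class II, and several cathepsins and legumain shape the peptides and receptors of endosomes.

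RefSeq promoter windows on GRCm38.p6 were found for 8 of the 10 members. Ctsb and Ctsh had none. Ctss and Ctsc are shown because they had the largest differences between the libraries. Ctsd is shown as an example of a match to the E-box letters CACGTG, which are described below. Each sequence begins 250 bases before the RefSeq start, runs 5′ to 3′ on the gene's strand and ends before the first annotated exon base, and capitals mark the motif matches.

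Ctss promoter, chr3:95526536-95526785, plus strand, with an ISRE-like match in capitals: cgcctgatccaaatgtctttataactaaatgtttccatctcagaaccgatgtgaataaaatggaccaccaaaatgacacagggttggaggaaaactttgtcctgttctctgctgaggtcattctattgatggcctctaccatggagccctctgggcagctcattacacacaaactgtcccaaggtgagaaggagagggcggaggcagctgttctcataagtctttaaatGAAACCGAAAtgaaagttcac
Ctsc promoter, chr7:88277835-88278084, plus strand, with a GAS-like and then a PU.1-like match in capitals: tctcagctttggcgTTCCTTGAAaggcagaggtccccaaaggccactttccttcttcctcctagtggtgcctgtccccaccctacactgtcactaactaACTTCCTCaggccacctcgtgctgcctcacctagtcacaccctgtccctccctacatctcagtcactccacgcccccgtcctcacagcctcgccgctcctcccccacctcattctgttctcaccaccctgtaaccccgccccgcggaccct
Ctsd promoter, chr7:142388039-142388077, minus strand, with an E-box match in capitals: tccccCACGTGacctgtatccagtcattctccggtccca

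The motifs were searched on both strands of 32851 windows of equal length, 250 bases before to 50 bases after the start. The ISRE-like pattern, GAAA, any 2 bases and GAAA, which is bound by interferon-regulated factors, lay in 3.44% of all windows and among the members in that of Ctss. The GAS-like letters TTCNNNGAA, bound by STAT factors, lay in 8.30% of windows and in that of Ctsc. The PU.1-like letters GAGGAAGT lay in 3.20% of windows and in those of Ctsc and Ctss, where the Ctss match spans the start and is not printed. The E-box letters CACGTG, bound by TFEB and its relatives, lay in 7.15% of windows. Among the 10 windows of the members they lay in 4, of Ctsa, Ctsd, Ctsl and Lgmn. Ctsa and Lgmn each have another window without a match. The matches in Ctsa and Ctsl do not end before the first annotated exon base. That of Lgmn is in a window inside the annotated gene. The longer form TCACGTGA, which contains the E-box, lay in 0.974% of windows and in those of Ctsa and Ctsd. The match of the longer form in Ctsd lies past the first annotated exon base and is not printed. A match is a match of letters, and no binding was measured here.

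Together the 10 members took 2.15% of all UMIs in the Fcmr+/+ library and 2.16% in the Fcmr-/- library. The median cell had 2.06% of its UMIs from them in Fcmr+/+ and 2.12% in Fcmr-/- cells. The level of each member was measured as its summed UMIs in CPM. A 3′ library gives 1 UMI for each captured molecule whatever its length, so CPM were compared between genes without a correction for length.

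Ctsb was the most abundant cysteine endopeptidase, with 6925 CPM (interval 6911 to 6940) in Fcmr+/+ and 6496 CPM (6482 to 6510) in Fcmr-/- cells. It ranked 11th and 12th among all genes. Ctsd, the aspartic protease, had 4018 CPM (4007 to 4029) and 3600 CPM (3590 to 3611). Lgmn, which came next in the Fcmr+/+ library but stood below Ctss in the Fcmr-/- library, had 2723 CPM (2714 to 2733) and 2387 CPM (2378 to 2395). These 3 and Ctsa were lower in the Fcmr-/- library, by log2 ratios of -0.09 for Ctsb, -0.16 for Ctsd, -0.19 for Lgmn and -0.11 for Ctsa. The ratio of Ctsk was -0.21 from summed UMIs, but its sign depended on how cells were weighted.

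Ctss, the endopeptidase of the MHC class II pathway, had 2687 CPM (2678 to 2696) in Fcmr+/+ and 3266 CPM (3256 to 3277) in Fcmr-/- cells. Ctsl, which digests the invariant chain in thymic epithelium and is abundant in phagocytes, had 1978 CPM (1971 to 1986) and 2305 CPM (2297 to 2314). Ctsc, which activates granule serine proteases by removing dipeptides, had 757 CPM (752 to 762) and 1086 CPM (1080 to 1092). These were higher in the Fcmr-/- library, by log2 ratios of 0.28, 0.22 and 0.52. The ratio of Ctsc, a 1.43-fold difference, was the farthest from 0 of the 10. Over the same libraries the 8 type II interferon markers summed to 63.7 and 525 CPM and the 9 type I interferon markers to 731 and 1168 CPM, and their part in these ratios was not tested. At the same mix of clusters the ratios were 0.10 for Ctss, 0.18 for Ctsl and 0.33 for Ctsc. Ctsz, a carboxypeptidase, had 1129 CPM in Fcmr+/+ and 1202 CPM in Fcmr-/- cells, and Ctsh, an aminopeptidase, 553 and 598 CPM. Ctsa, which also protects other lysosomal enzymes, had 577 and 533 CPM. Ctsk, best known as the collagenase of osteoclasts, was by far the least abundant, with 101.9 CPM (100.1 to 103.6) and 88.2 CPM (86.6 to 89.9).

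**Figure D1:**
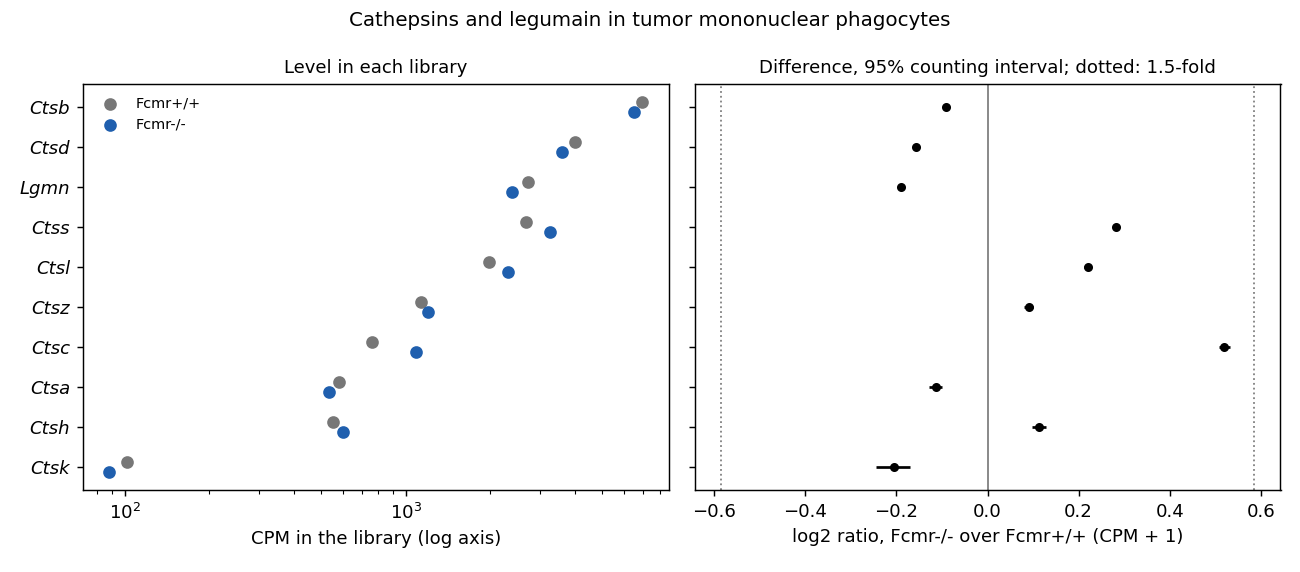
Level of each gene in the Fcmr+/+ (gray) and Fcmr-/- (blue) library as CPM on a log axis (left) and the log2 ratio of Fcmr-/- to Fcmr+/+ with its 95% counting interval (right, dotted lines at 1.5-fold). Levels run from 88.2 CPM for Ctsk to 6925 CPM for Ctsb, and the ratios lie between -0.21 and 0.52, inside the dotted lines.

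By summed UMIs, 5 of the 10 members were higher and 5, with Ctsk among them, lower in the Fcmr-/- library, and 0 were at least 1.5-fold higher and 0 at least 1.5-fold lower. Among the 8701 genes with at least 5 CPM in either library, 2.4% were at least 1.5-fold higher and 1.69% at least 1.5-fold lower. The median log2 ratio was -0.00095 over the members and 0.0023 over those genes. With each cell weighted equally it was 0.107 over the members and 0.006 over all genes. With cells thinned to 5000 UMIs the values were 0.107 and 0.005. The counting interval of each member's ratio excluded 0, which with these totals it does for small ratios. Ctsh and Ctsd lay on the other side of 0 when both libraries were given the same mix of clusters, at -0.03 and 0.01. Ctsk did so both when each cell was weighted equally and when cells were thinned to 5000 UMIs, at 0.19 in each case.

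Members differed more in how they were spread over the cells. To set aside the difference in depth, each cell was thinned to 5000 UMIs, which left out 0 cells. Ctsb then had a UMI in 100% of Fcmr+/+ and 99.95% of Fcmr-/- cells, with a median of 33 and 32 UMIs. Ctss, Ctsd, Lgmn and Ctsz had a UMI in 98.8% to 99.9% of cells, Ctsl in 96.7% and 96.4%, and Ctsa, Ctsh and Ctsc in 89.3% to 92.5%. Ctsk stood apart with 17.7% (16.7 to 18.6) of Fcmr+/+ and 21.5% (20.6 to 22.4) of Fcmr-/- cells. Before thinning its shares were 36.6% and 37.0%. The share and the summed CPM of Ctsk run in opposite directions between the libraries, so neither is taken as its order. As a measure of RNA from other cells, Pmel, a melanoma gene, had a UMI in 6.45% and 10.4% of thinned cells, and Col1a1, a fibroblast gene, in 0.157% and 0.0625%. No sorted cell type known to lack the members was at hand, so genes of other cells serve as the measure of free RNA.

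Ctsk molecules were also concentrated. The 10% of thinned cells with the most Ctsk held 83.0% of its UMIs in Fcmr+/+ and 77.6% in Fcmr-/- cells. For Ctsl this share was 38.0% and 39.3%, and for Ctsb 18.8% and 18.7%. Such a share is larger for genes with few UMIs by counting alone, and the part of level in it was not tested. The mean was 0.45 and 0.51 UMIs for Ctsk, 10.3 and 12.5 for Ctsl, and 33.5 and 32.4 for Ctsb. A single thinned cell reached 192 UMIs of Ctsl in the Fcmr+/+ library, against a median of 6. The variance of Ctsl over its mean was 15.0 and 18.9, where counting alone gives 1, against 1.29 and 1.3 for Ctsa. Ctsb had 7.33 and 6.63, and Ctsk 6.57 and 6.23. Ctsb was the highest member in 74.5% of Fcmr+/+ cells and 69.3% of Fcmr-/- cells. Ctss was so in 7.01% and 12.4%, Ctsl in 5.53% and 7.90%, Ctsd in 6.06% and 4.76%, and Lgmn in 3.37% and 1.26%.

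The macrophage states were read from 11 clusters of both libraries together, made with the members left out of the variable genes. Clusters were numbered by size and named from a marker list where at least 3 of its markers stood among the 20 leading genes, with more of them in the top 10 than of any other list. Clusters 3 and 8 were type II interferon-high-like, with Gbp4, Cxcl9 and Iigp1 among the leading genes, and were 95.1% and 95.4% Fcmr-/- cells. They held only 80 and 44 Fcmr+/+ cells. Cluster 9, 81.5% Fcmr-/- cells, was lipid-associated-like with Mmp12, Spp1 and Gpnmb. Cluster 10 was type I interferon-high-like (Rsad2, Ifit3), cluster 4 inflammatory-like (Cxcl3, Il1b) and cluster 5 G2 and mitosis-like (Cenpf, Top2a). Cluster 11 carried 3 lipid-associated markers and was led by Adm, Pdgfa and Mmp12. The unnamed clusters were led by Ccl17, Il1r2 and Ear2 (cluster 1), Tfrc, Cnrip1 and Gas6 (cluster 2), Acp5, Cyp4f18 and Apoe (cluster 6), and hemoglobin genes, Adm and Slc2a1 (cluster 7). The 20 leading genes of cluster 1 included the monocyte markers Vcan, Ccr2, Hp and Plac8. They also included H2-Eb1, H2-Ab1 and H2-Aa of MHC class II. Those of cluster 7 included 3 hypoxic markers, Slc2a1, Egln3 and Ero1l, besides 3 hemoglobin genes. In the whole libraries 102 Fcmr+/+ and 126 Fcmr-/- cells had a UMI of an erythroid marker. With 1 library per genotype, a cluster mostly of 1 library cannot be told apart from that library.

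Ctsk, Ctsl and Ctsc differed most between these clusters. In other clusterings Ctsk and Ctsl stayed first and second, but Ctsd passed Ctsc at resolution 1.2, with log2 spans of 2.16 and 2.05. With 20 principal components Ctsd (2.34) and Ctsb (1.72) both passed Ctsc (1.67). Ctsk was highest in cluster 9, at 329 CPM (309 to 349) in Fcmr+/+ and 348 CPM (337 to 360) in Fcmr-/- cells. It was lowest in cluster 1, at 36.1 and 26.8 CPM, a 9.11-fold span among Fcmr+/+ and 13-fold among Fcmr-/- clusters. In thinned cells of cluster 9, 43.4% (35.9 to 51.1) of Fcmr+/+ and 53.4% (49.7 to 56.9) of Fcmr-/- cells had a Ctsk UMI. The corresponding shares in cluster 1 were 9.08% and 7.24%. Cluster 9 held 9.51% of the Fcmr-/- cells and 35.2% of their Ctsk UMIs. Of the Fcmr+/+ cells it held 2.72%, with 10.2% of the Ctsk UMIs, while cluster 2 held 30.5% of them.

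Ctsl had its highest level in the same cluster, at 5035 CPM (4958 to 5113) in Fcmr+/+ and 6890 CPM (6838 to 6943) in Fcmr-/- cells. In the type II interferon-high-like cluster 8 it was lowest, at 913 CPM (856 to 972) and 1128 CPM (1113 to 1143). The inflammatory-like cluster 4 came second among Fcmr-/- clusters, at 3999 CPM. Ctsc had the reverse pattern. It was highest in cluster 8, at 1337 CPM (1268 to 1409) and 1677 CPM (1659 to 1695), and lowest in cluster 9, at 332 and 298 CPM. In cluster 9 of the Fcmr-/- library Ctsc was the lowest of the 10 members, below Ctsk. In the other 21 pairs of cluster and library Ctsk was lowest.

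**Figure D2:**
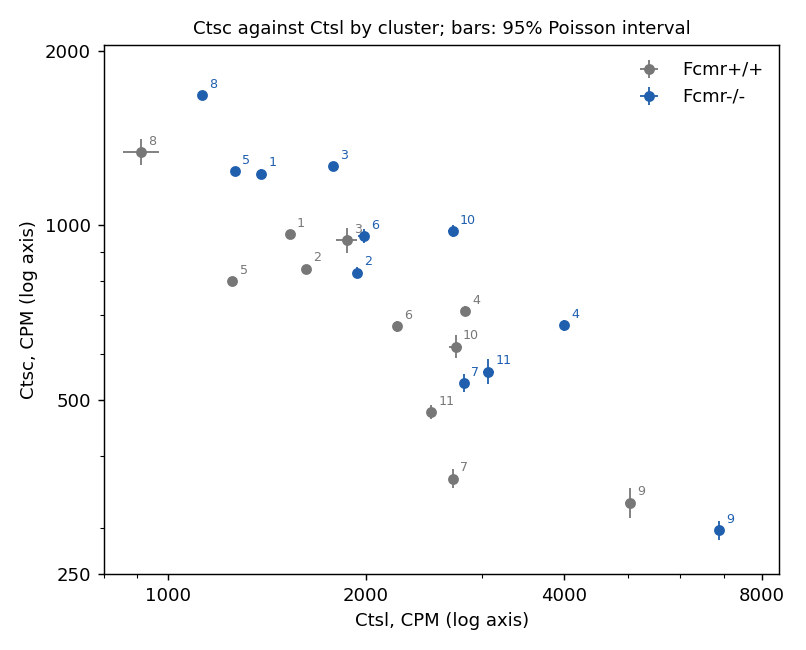
Ctsc against Ctsl in the 11 numbered clusters of the Fcmr+/+ (gray) and Fcmr-/- (blue) library, both as CPM on log axes, with 95% Poisson intervals. Cluster 9 lies at the lower right, with 5035 and 6890 CPM of Ctsl, and cluster 8 at the upper left, with 1337 and 1677 CPM of Ctsc.

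Ctsd came next, with 5585 CPM (5559 to 5611) and 6046 CPM (5994 to 6098) in cluster 2 and 4945 and 5789 CPM in cluster 9. Its lowest levels were 1866 CPM in cluster 10 of the Fcmr+/+ library and 2105 CPM in cluster 1 of the Fcmr-/- library, so that it spanned 2.99-fold and 2.87-fold. Ctsh was highest in cluster 6, at 850 and 810 CPM, with spans of 2.06-fold and 2.26-fold. Lgmn was highest in cluster 6 as well, at 3755 CPM (3719 to 3791) and 3111 CPM (3065 to 3157). Ctss was highest in cluster 6 of the Fcmr+/+ library, at 3926 CPM, and in cluster 3 of the Fcmr-/- library, at 4204 CPM. Ctsb, which was the highest member in all 22 pairs of cluster and library, ranged from 4708 CPM in cluster 1 to 8247 CPM in cluster 2 among Fcmr+/+ cells. Ctsz and Ctsa varied little, with spans of 1.40-fold to 1.54-fold, and Lgmn spanned 1.65-fold and 1.52-fold. Which member was the most even depended on the clustering. It was Lgmn at resolution 0.4 (log2 span 0.37) and Ctsh with 20 principal components (0.65).

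**Figure D3:**
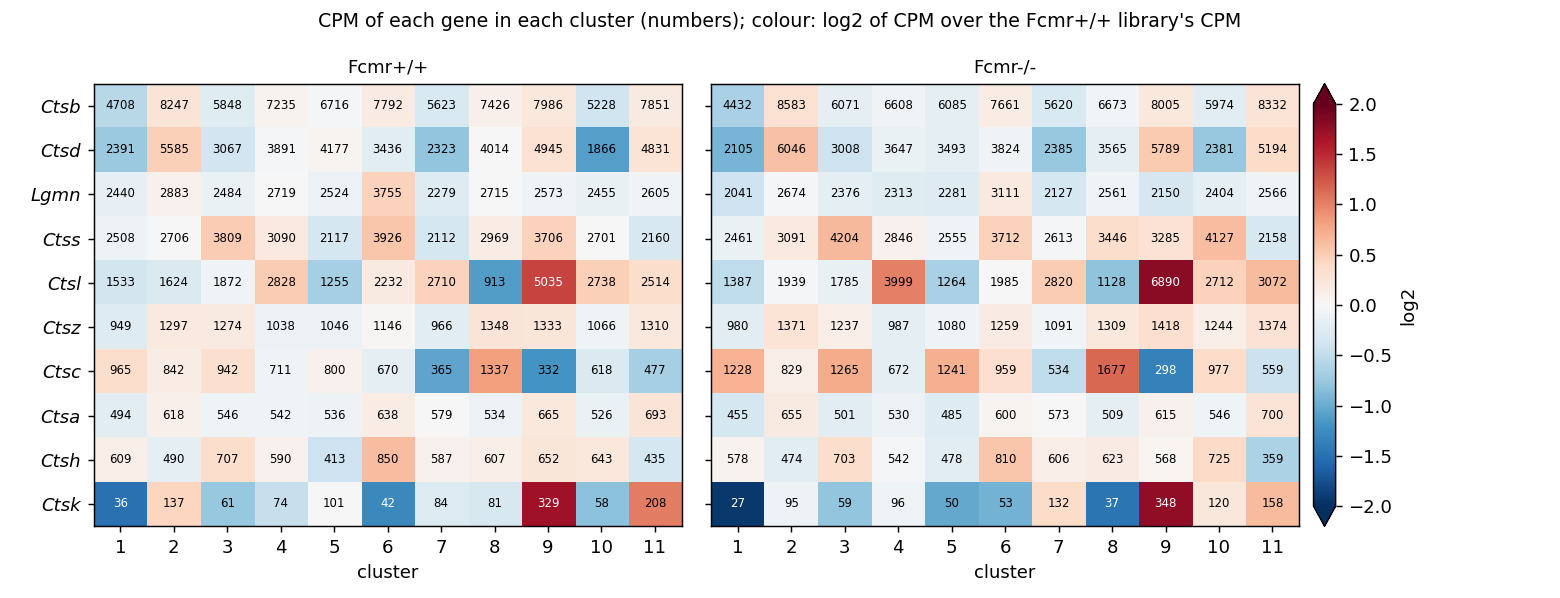
CPM of each gene in each of the 11 clusters of the Fcmr+/+ (left) and Fcmr-/- (right) library, colored by the log2 of the CPM over the gene's CPM in the whole Fcmr+/+ library. Ctsk and Ctsl are darkest red in cluster 9 (329 and 348 CPM, 5035 and 6890 CPM), and the rows of Ctsz and Ctsa are close to white.

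The summed share of UMIs taken by the members followed these levels. It was lowest in cluster 1, at 1.66% and 1.57%, and highest in cluster 9, at 2.76% and 2.94%. The median over the members of the log2 span across clusters was 1.02, against 0.83 over the 2571 genes with at least 50 CPM in both libraries. Ctsk and Ctsl stood at percentiles 98.3 and 95.9 of those genes, Ctsc at 94.4 and Ctsd at 85.1, whereas Ctsz stood at 19.9 and Ctsa at 23.5. With 20 principal components the median span was 1.61. That clustering set apart 174 cells led by Cd209a, Ccl17 and Ccr7, which are dendritic cell markers. These were 3 of the 9 dendritic cell markers listed, and no other of that list was among the 20 leading genes. A leading gene had to reach 50 CPM. Flt3 and Zbtb46, also listed, were below that, at 30.7 and 11.9 CPM against 0.188 and 0.228 CPM in all other cells. The levels of the remaining listed markers are not given here. Ccl17, Il1r2 and Ear2, which led cluster 1, were also among the 20. Klrd1 and Klrb1b ranked next, and Nkg7, a T and NK cell marker, was also among the 20. The levels in the 174 cells, summed over both libraries, were 2708 CPM of Ctsb against 6763 in all other cells, 1212 against 3844 CPM of Ctsd, 1123 against 2575 of Lgmn and 943 against 2154 of Ctsl. Ctsh, at 600.4 and 575 CPM, and Ctss, at 2369 and 2980 CPM, differed least. Cst3, which encodes the secreted inhibitor cystatin C, was at 4231 CPM in these cells against 1394, and Mertk at 18.8 against 56.3 CPM.

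Within clusters the members again differed in opposite directions between the libraries. Lgmn was lower in Fcmr-/- cells with an interval that excluded 0 in 9 of 11 clusters and higher in 0, with log2 ratios from -0.27 to -0.02. Ctsc was higher in 8 clusters and lower in 2, with ratios from -0.16 to 0.66. Ctsz was higher in 8 clusters and lower in 1, with ratios no larger than 0.22. Ctsd was lower in the library as a whole. Within clusters it was higher in 6, among them cluster 9 (0.23) and cluster 10 (0.35), and lower in 4. Ctsl was higher in 6 clusters and lower in 3. It was at 2828 CPM in Fcmr+/+ and 3999 CPM in Fcmr-/- cells of the inflammatory-like cluster 4, a log2 ratio of 0.50. In cluster 9 its ratio was 0.45. These counts of clusters rest on counting intervals, which exclude 0 even for small ratios. Examples are 0.04 for Ctsd in cluster 7 and -0.02 for Ctsb in cluster 6. The share of all genes counted in this way is not given here.

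Past 1.5-fold there were few values. In cluster 10, Ctss was at 2701 CPM (2642 to 2762) in Fcmr+/+ and 4127 CPM (4077 to 4177) in Fcmr-/- cells. Ctsc was at 618 and 977 CPM there, and Ctsk at 57.6 and 120 CPM, so that 3 members were at least 1.5-fold higher in that cluster, where 8.23% of all genes were. In the dividing cells of cluster 5, Ctsc was at 800.3 CPM in Fcmr+/+ and 1241 CPM in Fcmr-/- cells, the only member at least 1.5-fold higher, against 2.89% of genes. Cluster 5 also held T and NK cell markers at 28.0 CPM, and their part in this value was not tested. Over the whole libraries, the log2 ratio of Ctsc was 0.52 without cells holding a UMI of such a marker. Ctsk was the only member at least 1.5-fold lower in cluster 5, at 101.0 and 49.96 CPM, against 1.81% of genes. In thinned cells of cluster 5 the shares with a Ctsk UMI were 16.1% (13.5 to 19.0) and 12.7% (10.4 to 15.3), with intervals that overlap. Ctsk was also the only such member in cluster 8, at 81.5 and 37.2 CPM, against 5.95% of genes. In cluster 7 it was at least 1.5-fold higher, at 83.9 and 132 CPM, against 6.43%, with overlapping shares of 21.8% (18.6 to 25.4) and 25.8% (22.4 to 29.4). Cluster 7 also held erythroid markers at 313 CPM and melanoma markers at 147 CPM, and their part in this value was not tested. The Fcmr+/+ part of cluster 8 rests on 44 cells.

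**Figure D4:**
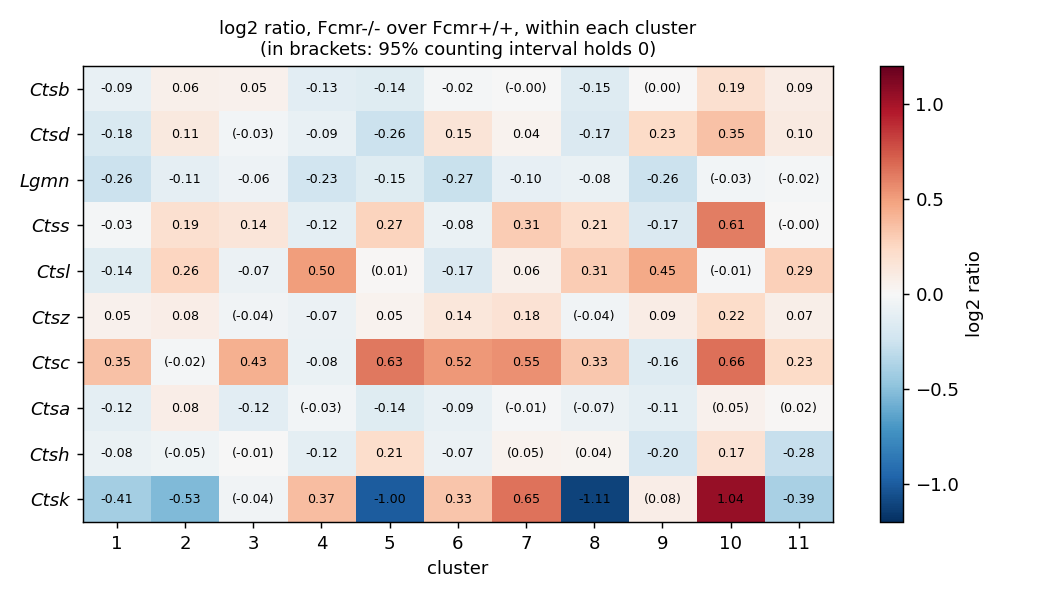
Log2 ratio of Fcmr-/- to Fcmr+/+ cells for each gene (rows) within each of the 11 clusters (columns), with values in brackets where the 95% counting interval holds 0. The row of Lgmn lies between -0.27 and -0.02, while the row of Ctsk runs from -1.11 in cluster 8 to 1.04 in cluster 10.

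Co-expression was measured as the Pearson correlation over the thinned cells of each library. It is a description, since the cells of a library share free RNA and handling. The 45 pairs had a mean of 0.118 in Fcmr+/+ cells (n = 6352) and 0.119 in Fcmr-/- cells (n = 7999). Ctsb, Ctsd and Lgmn were the most closely linked. They were also abundant, with means of 33.5, 18.3 and 13.9 UMIs in thinned Fcmr+/+ cells. Ctss had 13.9 as well, against 2.9 for Ctsa and Ctsh and 0.45 for Ctsk. Counting error lowers the correlation of genes with few UMIs, and the part of level in this order was not tested. Ctsb and Ctsd had 0.69 and 0.64, and 0.58 and 0.55 once the cluster means were removed. Ctsb and Lgmn had 0.51 in both libraries, and Lgmn and Ctsd 0.31 and 0.33. Ctsc had correlations of -0.13 and -0.14 with Ctsb, 0.01 and -0.17 with Ctsd and 0.03 and 0.12 with Lgmn. With Ctsl it had -0.21 and -0.33, and -0.13 and -0.10 within clusters. With Ctsk it had -0.11 and -0.27, and -0.08 and -0.13 within clusters. Of the 45 pairs, 9 were below 0 in Fcmr+/+ and 8 in Fcmr-/- cells. In the thinned cells, the correlation of Ctsd with the logarithm of a cell's UMIs before thinning was 0.39 and 0.21, and that of Ctsb 0.25 and 0.09. Within clusters these were 0.23 and 0.16, and 0.18 and 0.07. Members differed in sign, with -0.13 and -0.07 for Ctsh over all cells. The parts of depth and of cell state in these values were not tested.

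**Figure D5:**
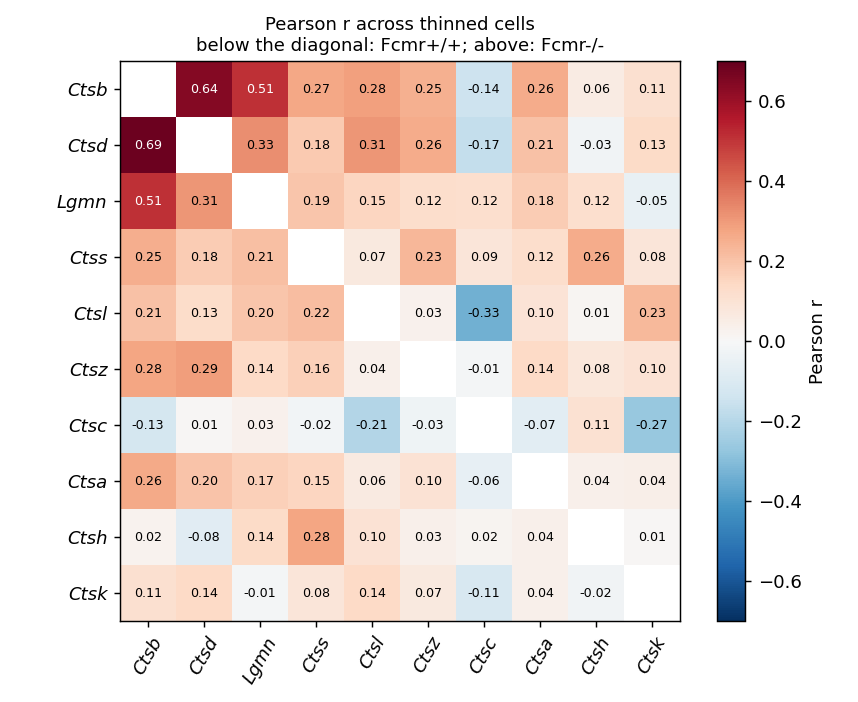
Pearson correlation of each pair of genes across cells thinned to 5000 UMIs, below the diagonal for the Fcmr+/+ and above it for the Fcmr-/- library. The largest values are those of Ctsb and Ctsd (0.69 and 0.64), and the lowest those of Ctsc and Ctsl (-0.21 and -0.33).

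Among 4718 other genes with a UMI in at least 10% of thinned cells, Psap was the most alike to 5 members. Psap encodes prosaposin, the precursor of the saposins that help degrade sphingolipids. It was at 5419 CPM in Fcmr+/+ and 5709 CPM in Fcmr-/- cells, and the part of level in its correlations was not tested. Its correlation, averaged over the libraries, was 0.55 with Ctsb, 0.54 with Ctsd, 0.42 with Ctss, 0.30 with Ctsz and 0.23 with Ctsa. Fabp5 and Cd68 came next for Ctsb, and Cd63 and Gpnmb for Ctsd. Spp1 (0.48), Lgals3 (0.39) and Pdpn (0.38) were the most alike to Ctsl, and Gpnmb (0.27), Ftl1 (0.24) and Mmp12 (0.23) to Ctsk. Lgmn was most like Apoe (0.42), Grn (0.41) and Ms4a7 (0.35), and Ctsh most like Apoe (0.20). Ctsc was most like Ly86 (0.32), Aif1 (0.31) and Tmsb4x (0.31), and its lowest value was with Lgals3 (-0.42).

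Correlations with Cd74 ran from negative to positive over the members. Cd74, the invariant chain, had correlations of -0.51 and -0.39 with Ctsb in the Fcmr+/+ and Fcmr-/- libraries and of -0.48 and -0.44 with Ctsd. Within clusters these were -0.32 and -0.26, and -0.29 and -0.28. Over all cells Cd74 had 0.20 and 0.38 with Ctsc, 0.15 and 0.18 with Ctsh, and 0.06 and 0.17 with Ctss. Within clusters these fell to 0.12 and 0.18, 0.07 and 0.12, and 0.03 and 0.12. Over all cells the remaining members were below 0. The values were -0.16 and -0.36 for Ctsl, -0.23 and -0.15 for Lgmn, and -0.14 and -0.20 for Ctsk. Ctsa had -0.16 and -0.12, and Ctsz -0.15 and -0.04. Cd74 was at 7803 CPM in cluster 1 and 338 CPM in cluster 11 of the Fcmr-/- library, where Ctsb was at 4432 and 8332 CPM.

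The companions of the members in the lysosome were taken from lists of genes with at least 5 CPM in either library. Of 53 other lysosomal hydrolases, 25 were higher and 28 lower in the Fcmr-/- library, with a median log2 ratio of -0.02. Naaa, an amidase of N-acylethanolamines, was the only one at least 1.5-fold higher (92.5 and 140.5 CPM), and Lyz1, a lysozyme, the only one at least 1.5-fold lower (82.4 and 48.0 CPM). Over all 8701 genes with that level, the shares were 2.4% and 1.69%, so 1 of 53 in each direction is near the share of all genes. The median log2 ratio was -0.02 over 27 membrane and transport genes and -0.02 over 17 subunits of the proton pump that acidifies the lysosome. It was -0.01 over 18 sorting genes and -0.03 over 8 transcription factors. Among the sorting receptors, Igf2r was at 41.5 and 55.8 CPM, M6pr at 172 and 196 CPM and Sort1 at 18.4 and 12.8 CPM. The transcription factors Tfeb (18.6 and 18.5 CPM), Tfe3 (48.1 and 46.3 CPM), Mitf (37.5 and 44.1 CPM) and Tfec (33.1 and 29.8 CPM) were all present.

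Of the inhibitors, 6 of 18 listed reached 5 CPM, with a median log2 ratio of 0.15. Cd74, the invariant chain, is among these 6 and is counted again among the antigen processing partners below. Cst3 was at 1383 CPM in Fcmr+/+ and 1475 CPM in Fcmr-/- cells, and Cstb, the cytosolic stefin B, at 1504 and 1729 CPM. Serpinb6a, a serpin that inhibits cathepsin G, was at 376 and 228 CPM, a log2 ratio of -0.72, and reached 643 and 610.4 CPM in cluster 11. Serpinb9, the granzyme B inhibitor, was at 5.65 and 11.8 CPM (0.94). Of 9 antigen processing partners, 8 were higher in the Fcmr-/- library, with a median of 0.53. Over all genes with at least 5 CPM the median was 0.0023, and the share of them that was higher is not given here. The median of the partners was 0.34 with each cell weighted equally, 0.37 without the clusters dominated by 1 library and 0.19 at the same mix of clusters. Cd74 was at 2294 and 3309 CPM, Ifi30, a thiol reductase of the lysosome, at 587 and 694 CPM, and H2-DMa at 119 and 189 CPM (0.66). Of 15 genes of endosomal nucleic acid sensing, whose receptors cathepsins cleave, the median was -0.02. Tlr7 was at 65.0 and 43.4 CPM and Unc93b1, which carries these receptors to endosomes, at 309 and 348 CPM. Irf7, a transcription factor of the interferon response, was at 69.7 and 139.5 CPM (0.99).

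Of the 16 other genes of the cathepsin and related families, Cts3, Cts6, Cts7, Cts8, Ctsj, Ctsll3, Ctsm, Ctsq, Ctsr and Tinag had 0 UMIs in both libraries. Ctso was at 24.6 and 28.3 CPM. The granule proteases Ctsg and Ctsw, of neutrophils and of NK and T cells, had 7 and 3, and 12 and 51 UMIs. Ctsf had 342 and 214 UMIs and Tinagl1 45 and 36. Ctse, an aspartic protease related to Ctsd, differed most. The Fcmr+/+ library had 62 UMIs, 0.483 CPM (0.370 to 0.619), and the Fcmr-/- library 1738, 13.9 CPM (13.3 to 14.6). After thinning, 0.205% (0.109 to 0.35) of Fcmr+/+ and 6.56% (6.03 to 7.13) of Fcmr-/- cells had a UMI. Ctse was higher in the Fcmr-/- library in 11 of 11 clusters, with 7.11 to 19.8 CPM against at most 1.27 CPM. Ctse lies on chromosome 1 of GRCm38 from 131638306 to 131675505, 757515 bases from Fcmr. Of the 11 genes within 1 Mb of Fcmr with at least 5 CPM in either library, Ctse was the only one at least 1.5-fold higher and Il10 (116 and 49.6 CPM) the only one at least 1.5-fold lower. Over all 8701 genes with that level, 2.4% were at least 1.5-fold higher and 1.69% at least 1.5-fold lower. Ikbke, at 25.0 and 37.9 CPM, lay just under that limit once 1 CPM was added, with a log2 ratio of 0.58. This window was chosen after the values were seen, and the part of position in the difference was not tested.

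Ctsk and Ctss are neighbors on the plus strand of chromosome 3, from 95499256 to 95509362 and from 95526786 to 95556403 on GRCm38, with 17423 bases and 0 annotated genes between them. The correlation of the pair across thinned cells was 0.08 in both libraries. Ctsk had a mean of 0.45 and 0.51 UMIs in those cells. Counting error lowers the correlation of such a gene, and the part of level in this value was not tested. Across the clusters Ctss spanned 1.86-fold and 1.95-fold, and Ctsk 9.11-fold and 13-fold. On the same build Ctsa and Ctsz lie on chromosome 2, from 164832873 to 164841032 and from 174427493 to 174439039, and Ctsc and Ctsd on chromosome 7, from 88278085 to 88310888 and from 142375911 to 142388038. Ctsh lies on chromosome 9 from 90054152 to 90076089, Lgmn on chromosome 12 from 102394084 to 102439813, Ctsl on chromosome 13 from 64359337 to 64370890 and Ctsb on chromosome 14 from 63122462 to 63145923.

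Some of these values differed between cells with and without RNA of melanoma cells. In the 2577 Fcmr+/+ and 3565 Fcmr-/- cells with a UMI of a melanoma marker, Ctsb was at 7164 and 6652 CPM, against 6706 and 6321 CPM in the cells without. Without those cells the log2 ratio of Ctsk was -0.04 and that of Ctsc 0.43, and the signs of all 10 were as before. The split used counts before thinning, and deeper cells hold such a UMI more readily. Pmel had a UMI in 20.5% of Fcmr+/+ cells before thinning and in 6.45% after. The parts of depth, cell state and melanoma RNA in these levels were not tested.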

How the data were processed

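Sorted MerTk+ CD64+ TMPs were loaded on a 10x Chromium instrument, 1 library per genotype. The deposited values are raw UMI counts per gene and cell, produced by the authors with Cell Ranger on the GRCm38 build and not normalized. Cells with 200 to 7000 genes and at most 30% mitochondrial UMIs were kept, as in the study's methods. Counts were summed over cells and divided by the total to give CPM. Intervals are exact (Poisson, conditional binomial for ratios, Clopper-Pearson for shares). A gene was counted as higher or lower at 1.5-fold among genes with at least 5 CPM in either library. Clustering used Seurat 5.3.0 in R 4.3.3 (10 principal components, resolution 0.8) with the members left out of the variable genes; the study used Seurat 2.1.0. Other steps used Python 3.11.15, numpy 2.4.6, scipy 1.17.1 and pandas 2.3.3. Scrublet in scanpy 1.11.5 called 0 doublets in each library, so the 5% of cells with the highest scores were left out as an alternative. Gene positions are those of GENCODE on GRCm38, and promoter windows those of RefSeq.

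The text names the 10 members, the genes of the sort, the 3 highest and 3 lowest genes of each companion list or some of them, genes acting directly with a member, the 3 genes most alike to each member and genes leading each cluster. Ctse and the genes around Fcmr were singled out after their values were seen. The members and lists were chosen with earlier results of these data known. The calculations were tested on simulated data. Alternatives covered scaling, pseudocount, filters, depth, doublets, cells of other types and clustering.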

Additional observations from a re-analysis of the deposited data

Results flagged for a closer look

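The log2 ratio of Ctsk between the libraries had opposite signs in different clusters. It was 0.65 in cluster 7 and 1.04 in cluster 10, but -1.0 in cluster 5 and -1.11 in cluster 8. The difference between these ratios was not tested, since each genotype has 1 library. The Fcmr+/+ levels behind them were 83.9, 57.6, 101.0 and 81.5 CPM, and the Fcmr-/- levels 132, 120, 49.96 and 37.2 CPM. In thinned cells of cluster 10, 16.2% (interval 11.7 to 21.7) of Fcmr+/+ and 32.5% (28.9 to 36.4) of Fcmr-/- cells had a Ctsk UMI, and in cluster 8, 18.2% (8.19 to 32.7) of 44 Fcmr+/+ and 8.32% (6.61 to 10.3) of 914 Fcmr-/- cells. The intervals of these shares overlapped in cluster 8 but not in cluster 10. They also overlapped in cluster 7, at 21.8% (18.6 to 25.4) and 25.8% (22.4 to 29.4), and in cluster 5, at 16.1% (13.5 to 19.0) and 12.7% (10.4 to 15.3).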

How the results depend on the processing

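Over all alternatives run, 0 members were at least 1.5-fold higher and 0 at least 1.5-fold lower in Fcmr-/- cells. The median log2 ratio over the members was 0.107 with each cell weighted equally and also with cells thinned to 5000 UMIs, -0.011 with totals without mitochondrial and ribosomal protein genes, 0.031 without cells holding a melanoma marker UMI and -0.040 without the clusters dominated by 1 library. The share of UMIs taken by the members, in Fcmr+/+ and Fcmr-/- cells, was 2.11% and 2.18% with each cell weighted equally, 2.63% and 2.63% without mitochondrial and ribosomal protein genes in the totals, 2.14% and 2.15% with no limits on cells, 2.17% and 2.20% with at most 5000 genes per cell, 2.11% and 2.17% after thinning, 2.11% and 2.13% without cells with a melanoma marker, 2.13% and 2.16% at the same mix of clusters, and 2.13% and 2.06% without dominated clusters. It was 2.14% in Fcmr+/+ cells with at most 10% mitochondrial UMIs, and 2.16% in Fcmr-/- cells both without the highest Scrublet scores and without cells with a T or NK cell marker. The median log2 span across clusters was 0.74 at resolution 0.4, 1.38 at 1.2, 1.61 with 20 principal components, 0.90 with the members among the variable genes, 0.89 without clusters under 5% of cells and 1.17 with each cell weighted equally. The mean pairwise correlation, in Fcmr+/+ and Fcmr-/- cells, was 0.169 and 0.159 without thinning, 0.112 and 0.106 as Spearman's correlation and 0.138 and 0.132 at 8000 UMIs, and 0.107 in Fcmr+/+ cells within clusters. The causes were not tested.

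With 1 library per genotype, no test was possible, and intervals leave out the spread between mice. The Fcmr+/+ values of clusters 3 and 8 rest on 80 and 44 cells and are the least precise. No paired analysis was possible because each genotype has 1 library.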
